A study of Mus musculus with 4 samples.

Results

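tRNA-Lys fragments are short RNAs cut from the transfer RNAs that carry lysine. Members were every distinct deposited sequence of at least 18 nt whose whole annotation named tRNA-Lys, which gave 854 of the 1442059 distinct sequences of that length, and of 1611102 of any length. The small RNA libraries came from C57BL mice, with 2 control libraries and 2 libraries labelled Mdd. The Mdd mice received daily stressors in random order (cage changes, noise, strobe light, restraint, isolation and a disturbed day cycle), and the controls were left alone apart from routine care. No further allele or agent is given for either group. Tissue and cell type are labelled testis and testicular cells, whereas the protocol describes RNA taken from sperm. The labels do not say whether replicates are separate mice or pools, so the spread between them may be technical.

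Mature tRNAs fold into a cloverleaf with a D loop, an anticodon loop and a T loop, and an enzyme adds the bases CCA to the 3′ end. Cuts in or near the anticodon loop give long fragments known as tiRNAs, and cuts near the D loop give shorter 5′ fragments. Sperm RNA is known for abundant 5′ fragments, of which those of tRNA-Gly and tRNA-Glu are the best studied. Lysine is carried by tRNAs with the anticodon TTT or CTT, written here with T for U as in the files.

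The sequences that follow carry the results on the 5′ side. They show where the fragments of both anticodons stop, with base 7, the base that separates the anticodons within these stretches, in capitals.
TTT, 24 nt: gcccggAtagctcagtcggtagag
TTT, 25 nt: gcccggAtagctcagtcggtagagc
TTT, 26 nt: gcccggAtagctcagtcggtagagca
TTT, 19 nt: gcccggAtagctcagtcgg
CTT, 18 nt: gcccggCtagctcagtcg
CTT, 30 nt: gcccggCtagctcagtcggtagagcatgag

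Positions are counted from 1 at the 5′ end of the mature tRNA, on sequences assembled from overlapping deposited reads, and in these the anticodon lies at 34 to 36. Of these 4 assembled sequences 3 were complete at 76 nt, and that of the TTT form with G at base 58 reached 68 nt. From TTT to CTT there were 12 differences, the first being A7C and the next C28G, so the first 27 bases differ at 1 position. The joined files give no genomic position for a sequence. Because the tRNA genes are multicopy, a fragment cannot be tied to 1 gene.

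The second set shows the 3′ side, with the part of the terminal CCA that each read holds in capitals. These are the most abundant fragments that start at base 47 and stop 1 base before, or at, the end of the tRNA. A genome match was recorded for both CTT reads and for neither TTT read. Whether the CCA of the CTT reads was added was not tested.
CTT, 29 nt: tcgtgggttcgagccccacgttgggcgCC
CTT, 30 nt: tcgtgggttcgagccccacgttgggcgCCA
TTT, 29 nt: tccagggttcaagtccctgttcgggcgCC
TTT, 30 nt: tccagggttcaagtccctgttcgggcgCCA

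Of the 854 members, 589 were CTT and 265 TTT. The 5′ end label was on 40 CTT and 33 TTT sequences, the 3′ end label on 19 and 12, the CCA end label on 24 and 16, and no end label on 506 and 204. The abundant reads with the CCA end label stop at base 75, before the terminal A. Those that hold the complete CCA have no end label. All 4 libraries held 199 members, whereas 398 occurred in 1 library only. A genome match was recorded for 806 members, which held 99.6% to 99.9% of the tRNA-Lys reads of each library. A further 67 sequences shared a label with tRNA-Glu and were left out, with 1205 to 3565 reads per library.

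The libraries held 9706895 and 16763277 reads of at least 18 nt in the controls and 23748630 and 23806805 in Mdd. Levels are given as RPM, reads per 1000000 such reads in the same library. Per 1000000 miRNA reads, the germ cell markers (miR-34b, miR-34c and miR-449a) summed to 103100 to 257200, and 3 of 3 were found in every library. Striated muscle markers (miR-1a, miR-133a and miR-206) summed to 61380 in control replicate 2 against 979 to 3491 in the other libraries. Blood cell markers (miR-451a, miR-150, miR-223 and miR-142a) summed to 6438 there against 46170 to 57860 elsewhere. Most of each sum was miR-451a, at 5608 there against 45520 to 57510 elsewhere. The low sum therefore does not hold for each marker. In that library miR-150 reached 549.8 against 0 to 301.6 elsewhere, and miR-223 reached 193.4 against 27.8 to 159.6. For miR-142a its value of 87.2 lay within the 10.05 to 361.6 of the other libraries. Epithelial markers ranged over 7354 to 17290, endothelial and smooth muscle markers over 44780 to 77920, and neuronal markers over 1247 to 9198. Of the defining markers, miR-150 alone was at 0, in Mdd replicate 2. The part of other cells in the tRNA-Lys values was not tested. The distribution of reads per sequence peaked at 7 and 10 reads in the controls and at 8 in Mdd replicate 2, but at 44 reads in Mdd replicate 1, so rare sequences are not comparable with that library. Members below their library's peak held at most 0.155% of the member reads.

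tRNA-Lys was among the 3 most abundant tRNA families of 21 in every library. It gave 434336 and 1047149 reads in the controls and 1246251 and 605139 in Mdd. That was 20.7% and 23.5% of nuclear tRNA reads in the controls, and 23.02% and 13.2% in Mdd, with 95% Wilson intervals within 0.0549 percentage points of each share. These intervals, like every read-based limit here, cover counting error only. The intervals also treat each read as independent, although reads per sequence peaked at 7 to 44, so they may be too narrow. Mdd replicate 2 was the low library and the groups overlapped. The mean share was 22.1% ± 1.95 in the controls and 18.1% ± 6.98 in Mdd (SD, n = 2 each), with a two-sided exact permutation p of 0.667. With 2 libraries against 2 the smallest p this test can give is 0.333, so no single value could pass. Without Mdd replicate 2 the difference of -4.01 points turned to 0.919 points. In bulk samples, fewer cells of a type and less RNA per cell cannot be told apart.

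TTT supplied most of the reads. Its share of tRNA-Lys was 93.6% and 93.0% in the controls and 92.8% and 89.7% in Mdd. CTT accordingly held 6.42%, 6.99%, 7.18% and 10.3%, and both Mdd libraries lay above both controls (exact permutation p = 0.333). Reads labelled 5′ end made up 97.6% to 98.3% of TTT in the 4 libraries. In CTT they made up 71.7% and 78.0% in the controls and 68.1% and 67.5% in Mdd, a lower share in both Mdd libraries (exact permutation p = 0.333). Over the 4 libraries the 5′ share was higher in TTT than in CTT by 26.6 points on average, with a range of 20.3 to 30.1.

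**Figure D1:**
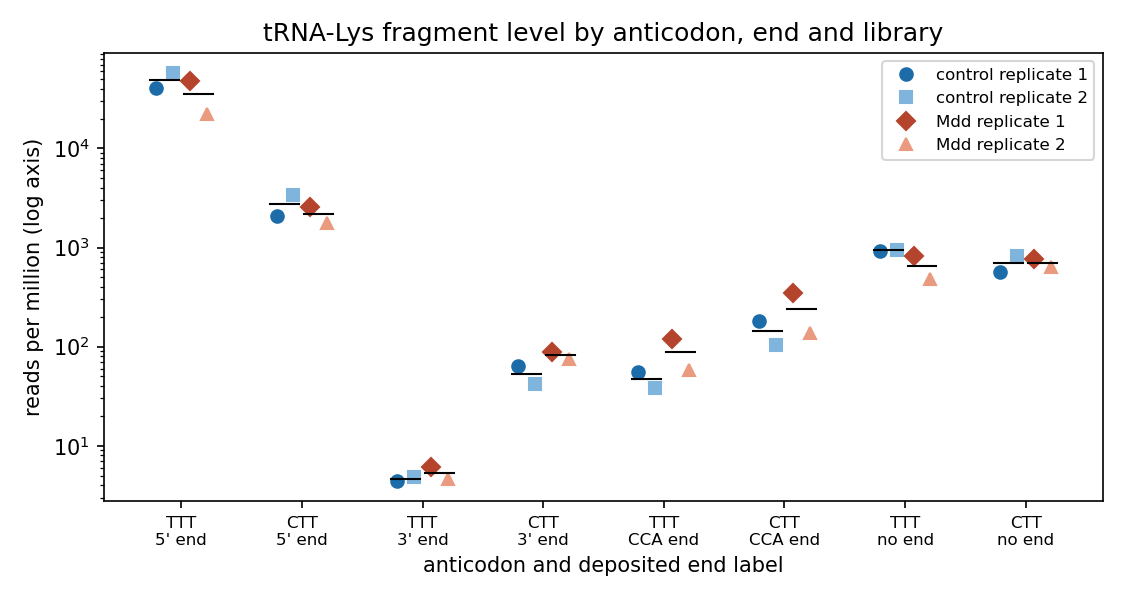
Level of tRNA-Lys fragments in RPM on a log axis, by anticodon and deposited end label; symbols are the 4 libraries and bars the group means. TTT 5′ fragments lie between 22250 and 57110 RPM and TTT fragments labelled 3′ end between 4.43 and 6.06 RPM. The CCA end label is on reads that stop at base 75, and reads with the complete CCA fall under no end.

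The 24 nt TTT fragment was the most abundant sequence of at least 18 nt in each of the 4 libraries, whatever its class. It numbered 247322 and 754560 reads in the controls and 857853 and 367239 in Mdd, or 25500, 45000, 36100 and 15400 RPM. Control replicate 2 was highest and Mdd replicate 2 lowest, and the groups overlapped. Its log2 fold change in Mdd was -0.21 ± 2.26 (SE), with an adjusted p of 1 in edgeR's quasi-likelihood test. The scaling factors of that fit were 1.11 to 1.16 in the other libraries and 0.68 in Mdd replicate 2, so its fold changes lie above the ratios of RPM.

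The next forms extend the same sequence by 1 and 2 bases. The 25 nt fragment stood at 9070 and 5560 RPM in the controls and 5540 and 3170 in Mdd. The 26 nt fragment stood at 5050 and 4680 RPM against 4380 and 2370. In both, the Mdd libraries lay below the controls, by a narrow margin in Mdd replicate 1, while neither passed the test (log2 fold changes -0.45 ± 1.42 and -0.25 ± 1.28, SE, adjusted p 1 for each in edgeR). The 19 nt fragment, which stops in the D loop, was at 355 and 584 RPM in the controls and 361 and 646 in Mdd. The 22 and 23 nt fragments ranged over 157 to 398 and 238 to 499 RPM, with overlap between the groups.

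The lengths of the TTT 5′ fragments were narrow. Those of 24 to 26 nt were 97.1% and 97.0% of the 5′ reads in the controls and 96.7% and 94.5% in Mdd. Reads of 24 nt alone held 62.5% and 79.1% in the controls against 75.9% and 69.6% in Mdd, so the groups overlapped. Their ratio to reads of 25 nt was 2.81 in control replicate 1, 8.12 in control replicate 2, 6.54 in Mdd replicate 1 and 4.88 in Mdd replicate 2. Both Mdd ratios lay between those of the controls. TTT fragments of 30 to 34 nt were 0.0794% to 0.149% of the TTT 5′ reads.

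CTT 5′ fragments had another length pattern although the first 27 bases of the assembled sequences differ from TTT only by A7C. A further CTT form that starts gcccagc was not assembled, and gave 243 to 499 of the CTT 5′ reads per library. Clusters stood out, at 18 nt and at 30 to 34 nt. The 18 nt fragment, the shortest length admitted here, held 44.8% and 26.4% of CTT 5′ reads in the controls and 35.5% and 24.2% in Mdd. Its level was 921 and 899 RPM in the controls and 910 and 427 in Mdd (log2 fold change -0.19 ± 0.87, SE, edgeR adjusted p 1). Fragments of 30 to 34 nt, which stop at or just before the anticodon, held 34.6% and 56.8% in the controls and 45.4% and 49.8% in Mdd. The 30 nt form was at 153 and 484 RPM in the controls and 253 and 224 in Mdd, with both Mdd libraries inside the control range.

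Lengths of 24 to 26 nt, which dominated TTT, made up 9.41% to 11.0% of CTT 5′ reads. Most of that was the 26 nt form at 147 to 233 RPM. The 24 nt CTT fragment, gcccggctagctcagtcggtagag, had 167 and 718 reads in the controls and 1048 and 318 in Mdd. The part of misread TTT reads in these counts was not tested. All CTT 5′ reads of 24 nt, this fragment included, averaged 1.37% of CTT 5′ reads over the libraries. In TTT the 5′ reads of 24 nt averaged 71.8%, a difference of 61.6 to 77.6 points in the 4 libraries. At 18 nt the order was opposite, with means of 0.279% in TTT and 32.7% in CTT. An exact paired permutation test over 4 libraries cannot go below 0.125, and both comparisons gave that p (adjusted p 0.134 over 15 paired comparisons). The mean lengths, at 24.3 nt in TTT and 25.8 nt in CTT, hide the split, and their order was not the same in all libraries (adjusted p 0.25 in the exact paired permutation test).

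**Figure D2:**
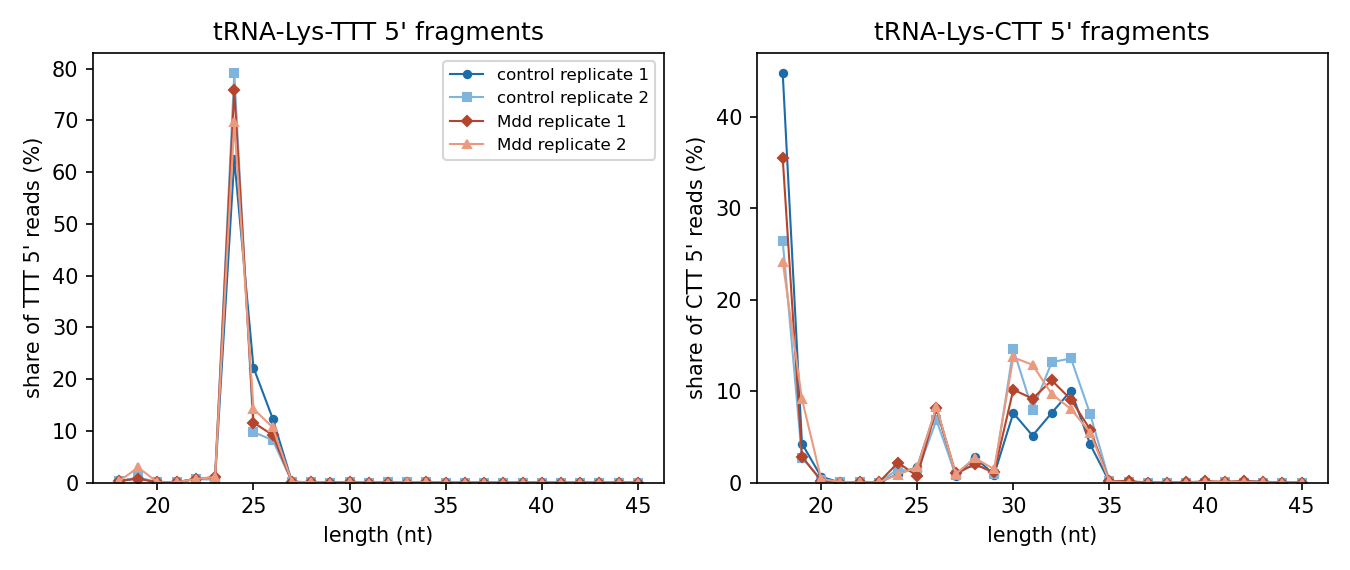
Share of 5′ reads (%) against fragment length (nt) for TTT on the left and CTT on the right; each line is 1 library, and the vertical scales differ. TTT has 1 peak at 24 nt (62.5% to 79.1%), and CTT has peaks at 18 nt (24.2% to 44.8%) and across 30 to 34 nt.

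Shorter reads lie outside the members. tRNA-Lys reads of 15 to 17 nt numbered 51940 and 87683 in the controls but 182 and 161 in Mdd. The Mdd files thus hold almost none, and what lies just below the 18 nt CTT peak cannot be compared between the groups.

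Beside tRNA-Glu, tRNA-Gly and tRNA-Val, the families chosen for comparison, tRNA-Lys had a higher 5′ share and shorter 5′ reads in every library, in a design too small for a test to pass. Its 5′ share averaged 95.8% against 65.3% in tRNA-Glu, 16.2% in tRNA-Gly and 81.9% in tRNA-Val. Its 5′ reads averaged 24.4 nt against 32.4, 29.3 and 31.8 nt. The share of 5′ reads at 24 to 26 nt was 91.5% in tRNA-Lys, 0.447% in tRNA-Glu, 9.13% in tRNA-Gly and 6.19% in tRNA-Val. Each of these 9 differences had 1 direction in 4 of 4 libraries (exact paired permutation p = 0.125, the smallest possible, adjusted p 0.134 over 15). The family values follow TTT, which supplied most of the reads. CTT alone averaged a 5′ share of 71.3%, below that of tRNA-Val, and 10.5% of its 5′ reads were 24 to 26 nt long. Its 5′ reads averaged 25.8 nt.

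**Figure D3:**
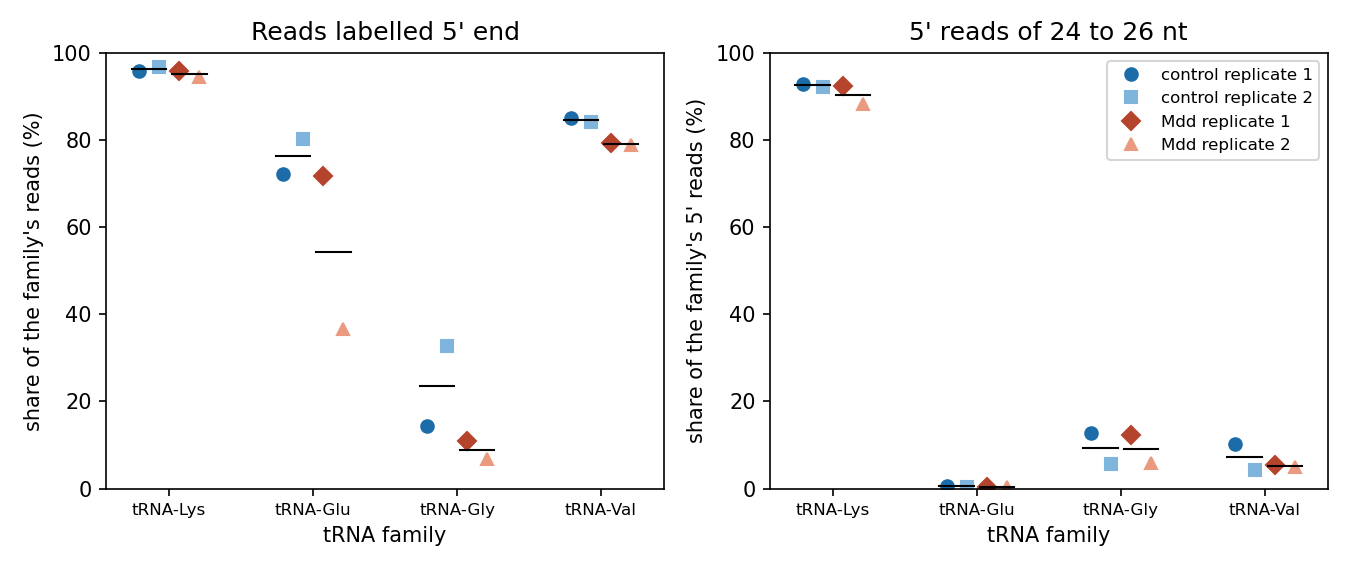
Share of each family's reads with the 5′ end label (left, %) and share of its 5′ reads that are 24 to 26 nt long (right, %), with 1 symbol per library and bars for group means. tRNA-Lys lies at 94.5% to 96.9% on the left and 88.4% to 93.0% on the right.

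Sequences that differ from the 24 nt TTT fragment by 1 base were counted among all deposited sequences. All 72 possible ones were present, and together they had 10.2% and 7.33% as many reads as the fragment in the controls and 7.84% and 10.7% in Mdd. The files label 70 of them as piRNA, of which 69 have no genome match, and only 2 as tRNA-Lys, so 70 are no members. The most abundant was G6A, with 8344 and 17251 reads in the controls and 22028 and 9605 in Mdd. G10A followed with 8788, 8267, 13422 and 10388 reads, and G6C with 2053, 11108, 10726 and 4954. The 2 with a tRNA-Lys label were C4T, at 0.318% to 0.429% of the fragment's reads, and A7C, the 24 nt CTT fragment, at 0.0675% to 0.122%. The other changes at base 7 had no genome match, with A7G at 0.0422% to 0.0792% and A7T at 0.00626% to 0.0137%. Reads of the C4T form were 24 nt long in 72.4% to 89.6% of cases, like the main form.

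Some fragments started inside the 5′ stem. TTT reads that started at base 3 were 0.618% to 0.900% of TTT reads placed on the assembled sequences, and those of CTT 3.38% to 4.24%. The 2 most abundant TTT sequences with no end label were of this kind.
TTT, 23 nt: ccggatagctcagtcggtagagc
TTT, 22 nt: ccggatagctcagtcggtagag
CTT, 24 nt: ccggctagctcagtcggtagagca
The 23 nt form had 2001 and 2292 reads in the controls and 3132 and 1892 in Mdd, which in RPM put Mdd below both controls (log2 fold change -0.39 ± 0.68, SE, edgeR adjusted p 1). The 22 nt form was at 77.7, 111, 93.9 and 44.5 RPM in the same order, and the CTT form at 46.5, 34.2, 49.7 and 37.3 RPM, both with overlap. These start 2 bases later than the main forms and stop at 24 to 26, the stops seen most often in TTT.

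A pair of CTT forms differs by A29G and T41C. The base at 29 was read in fragments that hold the whole of catgag or catggg, the stretch that ends at base 30. They are shown as 30 nt 5′ fragments with base 29 in capitals, followed by the most abundant fragment outside the 5′ class that carries G there.
CTT with A, 30 nt: gcccggctagctcagtcggtagagcatgAg
CTT with G, 30 nt: gcccggctagctcagtcggtagagcatgGg
CTT with G, 18 nt: cagtcggtagagcatgGg
Among 5′ fragments the form with A held 99.2% and 98.9% in the controls and 99.0% and 97.5% in Mdd of reads that hold this stretch. Among other CTT fragments it held 43.8%, 63.8%, 55.1% and 63.8%. The average gap was 42.0 points, and it ran the same way in 4 of 4 libraries (exact paired permutation p = 0.125; adjusted p 0.134 over 15). Outside the 5′ class the form with G rested on 852 to 1846 reads per library, of which the 18 nt sequence gave 426, 911, 418 and 225. No tRNA-Lys sequence in any library ended in TGG, which would be the 29 nt fragment of the G form. TGG was also the rarest of all 3-base ends among sequences of at least 18 nt in each library, at 0.0377% to 0.102% of reads. Fragments that end at base 29, or that start inside catgag or catggg, are not counted in the shares and reads above.

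Few reads crossed the anticodon. Placed TTT reads covered all 3 of its bases in 0.0258% to 0.0563% of cases, and CTT reads in 3.88% and 4.56% of cases in the controls against 5.40% and 6.38% in Mdd. Coverage of base 24 in TTT was 40290 and 56050 RPM in the controls and 46660 and 21290 in Mdd, and that of base 35 was 23.6, 18.3, 13.7 and 21.3 RPM in the same order. In CTT, base 35 was covered at 127, 221, 219 and 176 RPM.

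**Figure D4:**
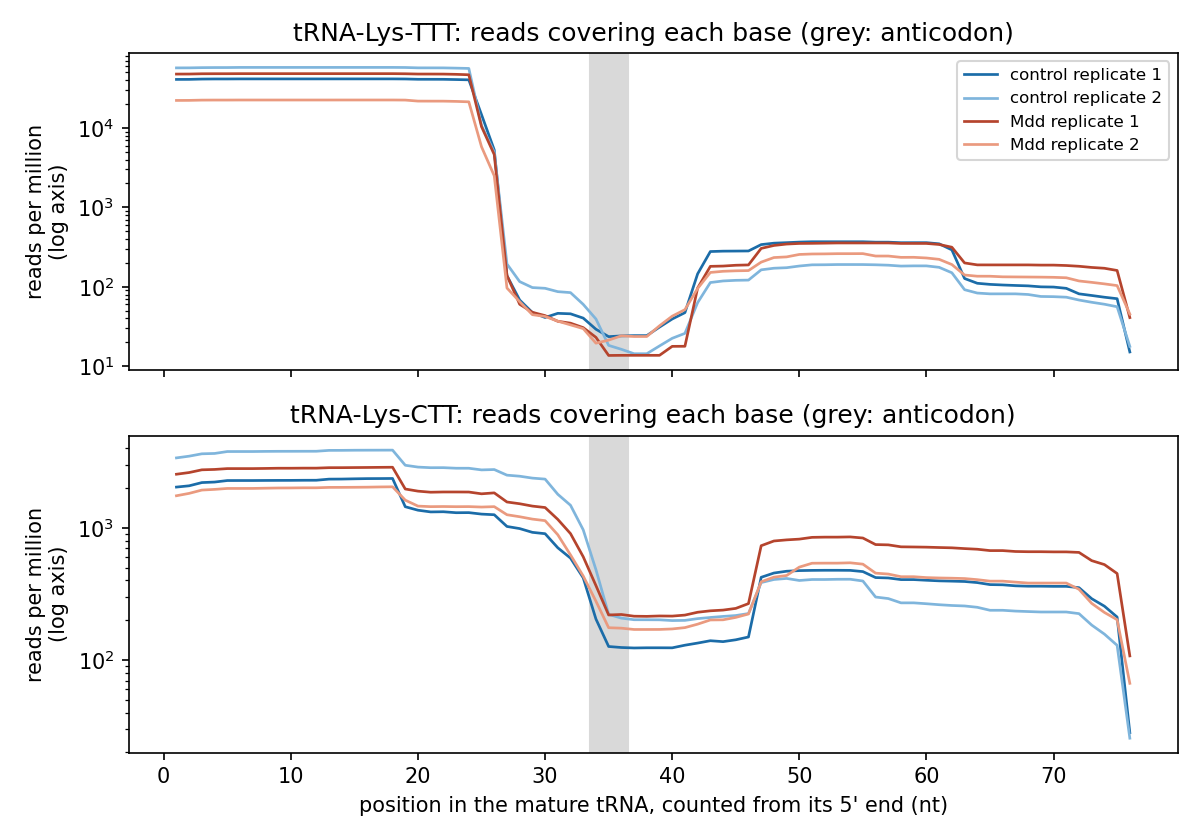
RPM (log axis) covering each base of the mature tRNA for TTT (top) and CTT (bottom), with position in nt from the 5′ end, 1 line per library and the anticodon in grey. TTT falls from at least 21290 RPM at base 24 to at most 23.6 RPM at base 35, while CTT steps down at base 18 and again across 30 to 34.

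The 3′ side was a small part of the family. Fragments that ended within the last 5 bases of the acceptor end stood at 434 and 294 RPM in the controls and 834 and 463 RPM in Mdd, with both Mdd libraries above both controls (exact permutation p = 0.333). The commonest stop was base 75, before the terminal A, with 2320 and 2397 reads in the controls and 11011 and 4619 in Mdd, or 41.9% to 55.6% of these 3′ reads. The CTT fragment of 29 nt that leads this class was at 149, 77.1, 258 and 81.9 RPM (log2 fold change 0.79 ± 0.78, SE, edgeR adjusted p 1). In these values Mdd replicate 1 was highest and the groups overlapped.

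Fragments that kept the complete CCA separated the groups more widely. They stood at 43.4 and 43.9 RPM in the controls and 149 and 113 RPM in Mdd, and held 9.98% and 14.9% of these 3′ reads against 17.8% and 24.3%. The means were 43.6 ± 0.378 and 131 ± 25.3 RPM (SD, n = 2 each), and both the level and the share gave an exact permutation p of 0.333. The CTT form of 30 nt had 201 and 232 reads in the controls and 2025 and 647 in Mdd. Its log2 fold change was 1.90 ± 0.73 (SE), with an adjusted p of 0.371 in edgeR. The TTT form of 30 nt had 54, 135, 542 and 275 reads, with a log2 fold change of 1.60 ± 0.73 (SE) and an edgeR adjusted p of 0.459. For the other tRNA families any read that ended in CCA was counted, whether or not it stopped at the 3′ end of the tRNA. Such reads of all other families together stood at 6751 and 3187 RPM in the controls and 13250 and 5557 in Mdd, so there the groups overlapped. Reads of tRNA-Glu that ended in CCA stood at 113 and 61.6 RPM in the controls and 160 and 123.6 in Mdd, without overlap, while those of tRNA-Gly and tRNA-Val overlapped. A higher level in both Mdd libraries was thus also seen in tRNA-Glu by this wider count, which is not the measure used for tRNA-Lys. The 30 nt forms were chosen after their values were seen.

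**Figure D5:**
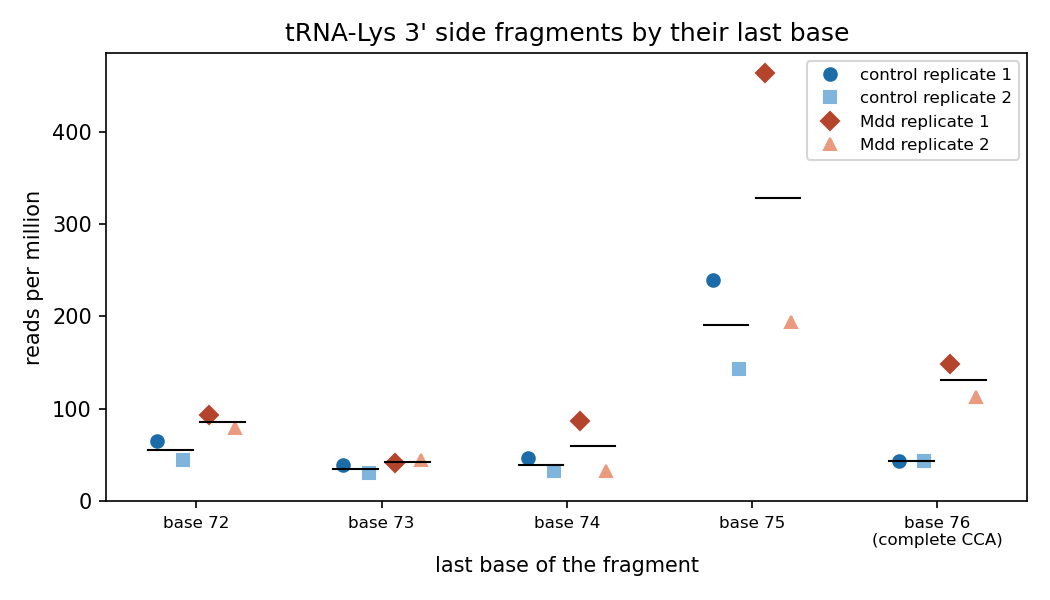
Level in RPM of tRNA-Lys 3′ fragments by the base at which they end, with 1 symbol per library and bars for group means. At base 76, the complete CCA, the controls lie at 43.4 and 43.9 RPM and the Mdd libraries at 149 and 113 RPM.

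A base in the T loop, where position 58 is methylated in many tRNAs, also came in 2 forms in TTT, related by A58G. The most abundant fragment with G is agggtccagggttcaGgtcc, with that base in capitals. It had 704 and 250 reads in the controls and 1002 and 472 in Mdd. Of TTT reads that show the base, 61.3% and 33.5% in the controls and 31.7% and 32.5% in Mdd had G. Control replicate 1 thus stood apart, and the groups did not overlap (exact permutation p = 0.333).

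Summed by anticodon and end, no tRNA-Lys group passed the test between Mdd and control. edgeR called 0 of 6 such groups at an adjusted p under 0.05, and 0% of all 120 tRNA groups, with 2 of the 120 at an unadjusted p under 0.05 and 0 called by DESeq2. The 3′ groups hold only reads with the 3′ end label, and the named ones stop at base 72. Fragments that stop at bases 73 to 76, the complete CCA included, were counted with neither end. The 3′ groups therefore did not test them. The log2 fold changes were -0.70 ± 0.55 for TTT 5′, -0.54 ± 0.63 for CTT 5′, 0.07 ± 0.75 for TTT 3′ and 0.58 ± 0.39 for CTT 3′ (SE), with adjusted p of 0.83 to 0.997 over the 6. The scaling factors of this fit were 0.724 in control replicate 2 and 1.075 to 1.158 in the other libraries. These group fold changes therefore lie below the ratios of RPM. Scaled by all reads of at least 18 nt, TTT 5′ was at -0.485. CTT 5′ turned to 0.25 without control replicate 2. The 3′ group of CTT, at 63.2 and 41.9 RPM in the controls and 89.1 and 75.6 in Mdd, was the 1 group of 6 with Mdd above control in every library, against 15% of all groups. The reads of TTT with neither end, at 981, 986, 932 and 541 RPM, were the 1 group below, against 18.3% of all groups.

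Single sequences gave no call either. Of the 854 members, 338 had enough reads to be tested, and these held at least 99.5% of the tRNA-Lys reads in each library. edgeR called 0 of the 338, and 0% of all 79093 sequences tested. At an unadjusted p under 0.05 there were 23 members (6.8%) against 10447 of all sequences (13.2%), and DESeq2 called 0 members and 134 sequences in all. DESeq2 gave 123 of the members no adjusted p, and the lowest for the others was 0.0568. Positive log2 fold changes were found in 220 members and negative ones in 118, and the median was 0.46 against -0.04 over all sequences tested. Mdd lay above both controls in 54 members (16.0%), where the share over all sequences was 7.84%. It lay below in another 54 (16.0%), where the share over all sequences was 30.3%. Without Mdd replicate 1 edgeR called 7 of 461 members (1.52%), 6 of them higher, where 1.48% of all sequences were called. Without Mdd replicate 2 it called 1 of 406 members (0.246%), where 0.14% of all sequences were called. In these fits with 1 library left out, the share called was close to that of all sequences. The shares at an unadjusted p under 0.05, and those above or below both controls, differed from those of all sequences.

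The members of lowest p in each direction are given as values only. Those higher in Mdd were 3′ fragments of CTT.
CTT, 23 nt: gggttcgagccccacgttgggcg
CTT, 31 nt: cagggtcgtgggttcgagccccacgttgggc
CTT, 25 nt: tgggttcgagccccacgttgggcgc
The 23 nt fragment had 5 and 18 reads in the controls and 248 and 218 in Mdd (edgeR adjusted p 0.247). The 31 nt fragment had 0 in both controls and 220 and 33 in Mdd, and was the 1 member called without Mdd replicate 2 (edgeR adjusted p 0.02). The 25 nt fragment had 0 in both controls and 61 and 116 in Mdd, and was among the 7 called without Mdd replicate 1. A count of 0 allows up to 3 molecules, which at each library's peak number of reads per sequence come to 2.16 and 1.79 RPM in the controls. In Mdd the 31 nt fragment was at 9.26 and 1.39 RPM, and the second value lies below both control limits. The 25 nt fragment was at 2.57 and 4.87 RPM in Mdd. Its 61 reads in Mdd replicate 1 lie near that library's peak of 44 reads per sequence, so they may stand for few molecules.

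The members of lowest p that were lower in Mdd were rare, and the first of them spans the anticodon, shown in capitals.
CTT, 35 nt: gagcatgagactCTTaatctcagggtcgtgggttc
CTT, 28 nt: ggtcgtgggttcgagccccacgttgggc
TTT, 18 nt: agggttcaagtccctgtt
They had 5 and 15, 8 and 13, and 6 and 16 reads in the 2 controls and 0 in both Mdd libraries (edgeR adjusted p 0.182 to 0.186). By the same measure a count of 0 allows up to 5.56 and 1.01 RPM in Mdd, above the control levels of all 3, so a lower level in Mdd was not detectable at this depth. The named 3′ forms that stop at base 72 were also low. The CTT fragment of 26 nt, tcgtgggttcgagccccacgttgggc, was at 37.3 and 31.5 RPM in the controls and 46.4 and 31.6 in Mdd, and that of 23 nt, tgggttcgagccccacgttgggc, at 7.42, 1.01, 5.52 and 22.2 RPM. The TTT fragments tccagggttcaagtccctgttcgggc and ccagggttcaagtccctgttcgggc had 6 to 100 reads per library, and the groups overlapped in both.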

How the data were processed

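Small RNA was sequenced in 2 control and 2 Mdd libraries. The deposited tables give raw read counts for each distinct sequence of 15 to 45 nt, its length in nt, a genome match and an annotation; the build mm9 and DESeq2 are named in the submitters' processing notes, with trimming, aligner and annotation source not given in the sources used here. Tables were joined by sequence, with the annotation of the first library that gave one, because 1 Mdd file uses fewer classes. RPM is relative to all reads of 18 nt or longer. The quasi-likelihood test of edgeR 4.0.16, with filterByExpr, TMM and Benjamini-Hochberg adjustment at a threshold of 0.05, was fitted to all annotated sequences and to reads summed by anticodon and end, where reads with the CCA end label count as neither end. It was also run on simulated data. Their dispersion, the spread between libraries, was lower than the 2.101 for sequences and 0.3993 for groups fitted here. That run does not show how the test performs at the dispersion of these data. DESeq2 1.42.0 was an alternative. Single values had two-sided exact permutation tests. Positions come from assembled reads that overlap by at least 15 nt (757 of 854 members were placed).

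The named sequences are the 8 most abundant members, the 2 highest in each anticodon and end class, and the 3 of lowest p in each direction. The members, lists and families were chosen with earlier results of these data known.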

Additional observations from a re-analysis of the deposited data

How the results depend on the processing

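No tRNA-Lys sequence or group was called by edgeR under the other scaling, filters, annotations or lengths, nor by DESeq2; leaving out 1 library gave 0 to 7 called sequences and 0 groups. The 7, without Mdd replicate 1, were 1.52% of the members tested, where 1.48% of all sequences were called. That leaves 1 library in a group, which is assumed to vary like the other group. CCA ends as a class of their own, an alternative chosen after seeing the data, also gave 0 called groups. That class holds reads that stop at base 75, not those with the complete CCA. With the replicate number as a block, 0 tRNA-Lys sequences and 0 tRNA-Lys groups were called, where 14 of all 79093 sequences were called. Over all sequences, edgeR called 105 of 430951 without the filter, and DESeq2 called 134 of 79093. With all lengths, edgeR called 1 of all 122 groups. The pairing check gave r = 0.0176 between the deviations of same-numbered libraries over 79093 sequences, so the replicate numbers do not show pairing. The share of tRNA reads, -4.01 points in Mdd, was 1.87 points with reads of all lengths, where 15 to 17 nt reads enter, and -8.95 to 0.919 points when 1 library was left out. Of 28 log2 fold changes followed under settings that kept all libraries, 222 of 226 values kept their direction and side of the threshold. The exceptions were CTT reads with neither end (0.0118), at -0.433 with all lengths, and the 30 nt CTT form (-0.0474), at 0.0473 with RLE scaling and 0.0473 with DESeq2 and 0.155 with the replicate block; the cause was not tested. With 1 library left out, 96 of 108 values kept both, 10 changed sign and 2 passed the threshold. In log2, CTT 5′ ranged from -0.82 to 0.245, TTT 3′ from -0.0177 to 0.453 and CTT with neither end from -0.129 to 0.503. The 24 nt TTT fragment ranged from -0.573 to 0.246, the 22 nt one from -0.466 to 0.0705, the 19 nt one from -0.419 to 1.11, and the 30 nt CTT form from -0.68 to 1.01. The TTT fragment from base 48 to 72 ranged from -1.52 to 1.82, and that from base 3 to 24 from -0.433 to 0.0817. Depth limits the rare members: a count of 0 allows up to 1.01 to 5.56 RPM.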
